A study of Mus musculus with 4 samples.

Results

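The CD300 and C-type lectin receptors described here are 10 genes of innate immune cells, namely 4 CD300 receptors (Cd300a, Cd300lb, Cd300ld and Cd300lf), 4 C-type lectins (Clec4d, Clec4e, Clec4n and Clec7a) and the pair Trem1 and Trem2. They were taken by name from the array's annotation, and every probe set annotated to only 1 gene and to one of these names was used. The 10 genes are part of 18193 that the array names by such a probe set. They had 15 probe sets of 45037, with 2 for each of 5 genes and 1 for each of the other 5. The members were chosen by name, in view of their signals and of the difference between the stimulations on these same 4 arrays, so that difference is given for them as a description. A filter on dim probe sets, a mean signal of at least 69.6 over the arrays, kept 27022 probe sets for testing and 14 of the 15, so all 10 genes have a tested probe set and 1 Trem1 probe set has none of the fitted values.

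All cells were mouse macrophages grown from bone marrow for 7 days with 20% L-cell conditioned medium, which supplies the growth factor M-CSF, and then kept overnight without it. Priming with 100 U/ml interferon-gamma then ran overnight in both groups, with 16 h stated for the LPS group only, and the cells were washed. The LPS group then received 10 ng/ml lipopolysaccharide for 2 h, and the LPS plus immune complexes group received the same dose with immune complexes added, which are antibodies bound to their antigen. Each group had 2 arrays, labelled replicates 1 and 2. There was no unprimed and no unstimulated group, so the levels below are those of primed and LPS-treated cells throughout. The strain, sex and age of the mice and the make-up of the immune complexes are not given in the sources used here. No label ties the replicates to separate cultures or animals, so any p-value reflects only how far these samples spread, and that spread may be technical.

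CD300 proteins are immunoglobulin-like receptors, some with inhibitory motifs in their tails and some that signal through partner chains. The Dectin and Mincle C-type lectins bind sugars and glycolipids of fungi and mycobacteria. Those that activate pass their signal through an ITAM tyrosine motif, carried by the partner chain FcR-gamma (Fcer1g) or in part by the receptor's own tail, to the kinase Syk and the adaptor CARD9. TREM receptors use the partner chain DAP12 (Tyrobp) in the same manner. Fc gamma receptors, which bind immune complexes, use FcR-gamma and Syk as well.

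All arrays were scaled to a trimmed mean signal of 500. The median signal was 155.4 for LPS_IC replicate 1 (LPS_IC stands for LPS plus immune complexes) and between 68.2 and 88.3 for the others, so dim probe sets read higher on that array. Macrophage markers were present: all 8 listed (among them Csf1r, Cd68, Adgre1 and Lyz2) were past the filter, with summed signals of 152218.8 and 186681 for LPS against 133083.4 and 150409.9 for LPS_IC. Of 8 neutrophil markers read, 4 were past the filter, and the list's summed signal was 994.3 and 1075.8 with LPS against 1677.6 and 1597.2 with immune complexes. Within it, S100a8 read 540.8 and 504.7 against 871.3 and 1137.6, while its partner S100a9 was under the filter, with readings from 27.2 to 101. Without S100a8 the list's sums overlapped between the groups, at 453.5 and 571.1 with LPS against 806.3 and 459.6 with immune complexes. Of the 4 past the filter, S100a8 and Ngp had log2 differences above 0 and Mpo and Camp below, with a median of 0.03. Summed signals of the T cell markers (3 read, 0 past the filter) ran from 42.5 to 157.9 with LPS and were 223.1 and 105.3 with immune complexes. The NK cell marker Ncr1 was under the filter too, at 8.9 and 57.9 with LPS, against 44.5 and 36.3 with immune complexes. Among the 3 B cell markers, 2 were past the filter, and the sums were 258.1 and 265.4 with LPS, against 391.7 and 237 with immune complexes. Dendritic cell markers (5 of 6 past the filter) summed to 811.5 and 886.3 against 1304.9 and 730.3, mast cell markers (2 of 3) to 222.7 and 121.6 against 341.2 and 117, and fibroblast markers (3 of 4) to 284.7 and 248.6 against 566 and 191.1. For these last 4 lists the highest sum was that of LPS_IC replicate 1. None of the markers was read at 0. In such bulk samples, fewer cells of a type and less RNA per cell cannot be told apart.

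The question was which surface receptors distinguish macrophages given LPS with immune complexes from those given LPS alone. Among these receptors the 2 groups stood clearly apart for Cd300lb, with a mean 3.88-fold higher with immune complexes, while the tested probe sets of Cd300ld, Cd300lf, Clec4d, Clec4e, Clec4n and Clec7a differed by at most 0.28 on the log2 scale. Cd300a, Trem1 and Trem2 each have a second probe set that behaved differently from the first, as given below. In the limma fit over all 27022 probe sets, 0 of the 14 passed an adjusted p under 0.05, where 0.0518% of all probe sets did, and nothing is read from that share because the members were chosen with this contrast known. At an unadjusted p under 0.05 limma took 1 of the 14, Cd300lb, where it took 2.81% of all probe sets. The median log2 difference, LPS plus immune complexes minus LPS, was -0.01 over the 14 and 0.07 over all tested probe sets, with 7 of the 14 above 0 and 7 below. Of the 14, 10 lay within 0.5 of 0 (71.4%), and so did 71% of all tested probe sets.

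**Figure D1:**
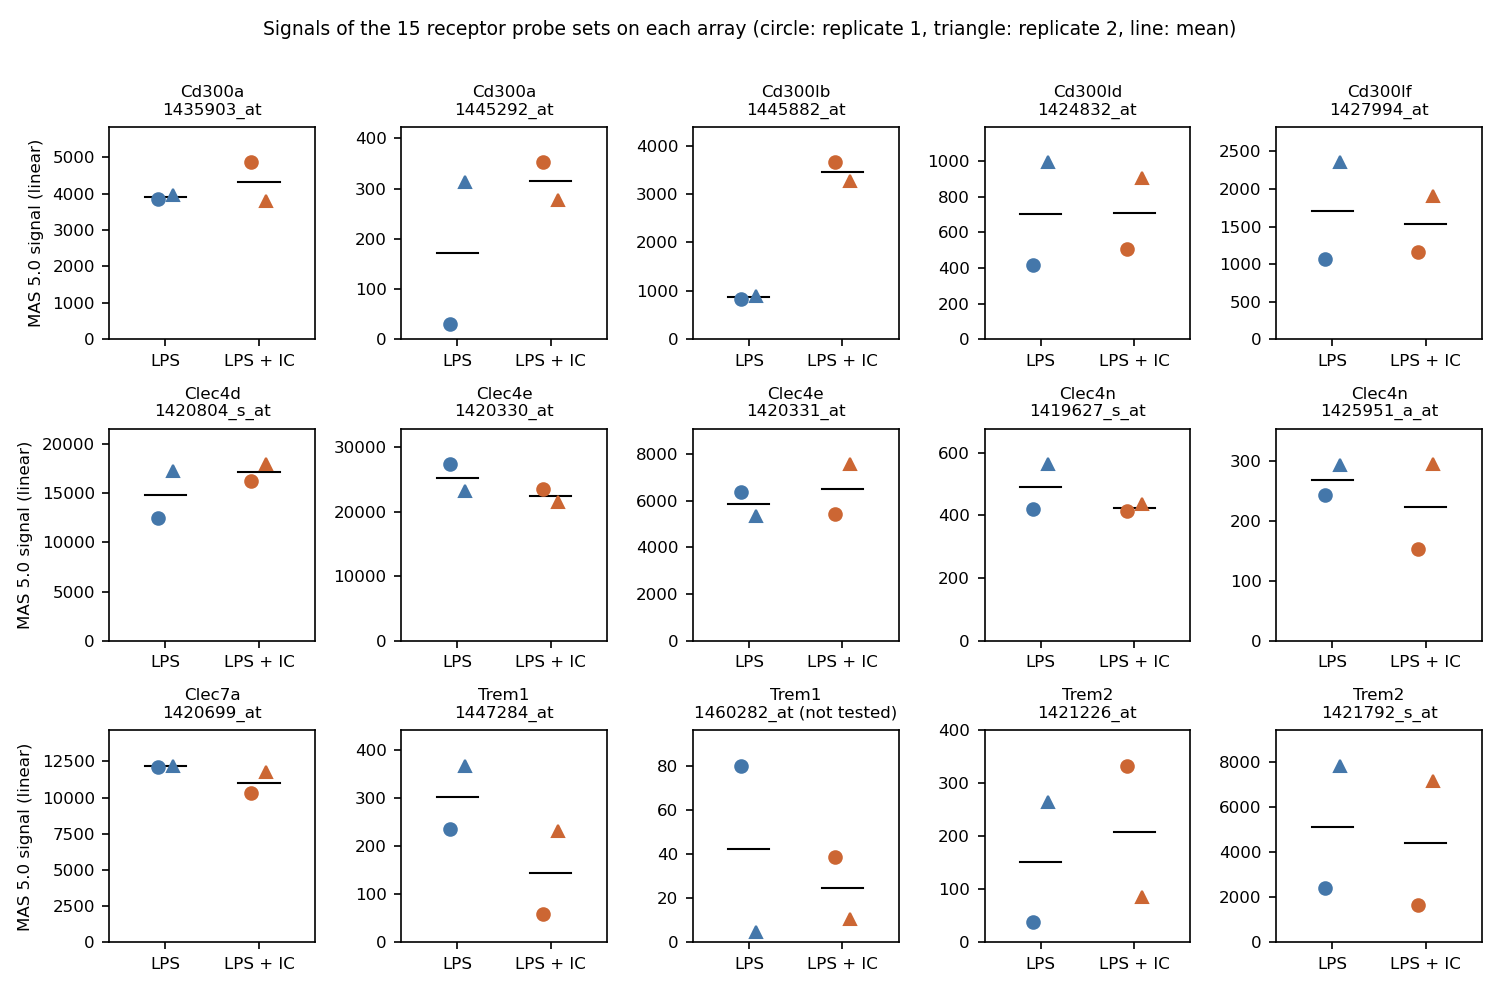
Signal on each array (linear MAS 5.0 units, 1 panel per probe set with its own axis from 0), with LPS on the left and LPS plus immune complexes on the right; circles are replicate 1, triangles replicate 2 and lines the mean of 2 arrays. Cd300lb lies at 836.9 and 896.9 with LPS and at 3653.7 and 3260.6 with immune complexes, while in the Cd300ld, Cd300lf and second Trem2 panels the triangles lie above the circles in both groups.

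Cd300lb (also CLM-7 or LMIR5) is an activating CD300 receptor that pairs with DAP12. Its 1 probe set (1445882_at) read 836.9 and 896.9 for LPS replicates 1 and 2, and 3653.7 and 3260.6 for LPS_IC replicates 1 and 2, the order kept below. Both readings with immune complexes were higher than both with LPS, and within each group the arrays differed little. The mean was 866.9 ± 42.4 (SD, n = 2 arrays) with LPS and 3457.2 ± 278 (SD, n = 2 arrays) with immune complexes. On the log2(signal + 32) scale, where changes of dim probe sets come out too small, the difference was 1.96 ± 0.35 (SE), or 3.88-fold. Taken by replicate number it was 4.24-fold for replicate 1 and 3.54-fold for replicate 2. It was 1 of 204 tested probe sets (0.755%) that were at least 2-fold higher with immune complexes in every pairing of an array of each group, and it ranked 83rd by the size of its rise. Its limma adjusted p was 0.0945, which does not pass. The sum of the neutrophil markers was higher on both arrays with immune complexes too, with an overlap once S100a8 is left out, and its part in this difference was not tested. With no filter on dim probe sets the limma adjusted p was 0.00563, which passes. The limma adjusted p did not pass with quantile normalization (0.205), median centring (0.341), a pseudocount of 1 (0.0648) or 100 (0.135), or a 60th percentile filter (0.152). Without the variance trend it was close to 1. The fits with a block for the replicate number, in which Cd300lb passed, are given at the end. Leaving out 1 array decided the adjusted p, which was 0.0133 without LPS replicate 1, 0.00465 without LPS replicate 2, 0.197 without LPS_IC replicate 2 and close to 1 without LPS_IC replicate 1, with log2 differences from 1.87 to 2.04. In both fits without an LPS array, the ones that passed with an array left out, limma's prior was infinite. Every probe set of like signal was then given the same spread.

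On mouse chromosome 11, Cd300a is followed by Cd300lb, then by Cd300c and Cd300ld, while Cd300lf lies further along between Rab37 and Slc9a3r1. The start regions of Cd300lb and of the other CD300 members are shown next. The 300 bases from 250 before to 50 after each annotated start are given 5′ to 3′ from RefSeq (GRCm38.p6). Capitals mark every match to 6 short motifs, searched on both strands and allowed to overlap: TGANTCA (AP-1), the NF-kB consensus, TTGCNNAA (C/EBP), GAGGAA (the core bound by PU.1, the macrophage ETS factor), TGACGTCA (CRE) and GCGTGGGCG (EGR).
Cd300lb, chr11:114934322-114934621, minus strand: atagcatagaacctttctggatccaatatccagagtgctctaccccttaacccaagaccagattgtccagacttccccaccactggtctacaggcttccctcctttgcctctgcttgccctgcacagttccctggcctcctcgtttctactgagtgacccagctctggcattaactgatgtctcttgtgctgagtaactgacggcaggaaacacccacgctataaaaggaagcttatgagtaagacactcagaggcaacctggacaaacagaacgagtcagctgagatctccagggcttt
Cd300a, chr11:114889791-114890090, plus strand: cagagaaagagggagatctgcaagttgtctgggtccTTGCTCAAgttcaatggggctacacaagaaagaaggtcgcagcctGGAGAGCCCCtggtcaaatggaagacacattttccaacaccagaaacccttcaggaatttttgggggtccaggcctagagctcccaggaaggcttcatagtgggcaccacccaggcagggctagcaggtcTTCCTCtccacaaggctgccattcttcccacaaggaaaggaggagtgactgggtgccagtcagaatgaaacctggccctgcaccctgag
Cd300ld, chr11:114989837-114990136, minus strand: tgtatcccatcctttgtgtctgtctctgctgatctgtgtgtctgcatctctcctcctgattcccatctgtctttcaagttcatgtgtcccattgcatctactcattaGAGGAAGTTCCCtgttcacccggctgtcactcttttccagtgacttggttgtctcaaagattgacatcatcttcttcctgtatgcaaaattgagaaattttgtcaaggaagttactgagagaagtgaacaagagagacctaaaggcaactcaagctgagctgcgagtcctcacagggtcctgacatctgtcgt
Cd300lf, chr11:115133943-115134242, minus strand: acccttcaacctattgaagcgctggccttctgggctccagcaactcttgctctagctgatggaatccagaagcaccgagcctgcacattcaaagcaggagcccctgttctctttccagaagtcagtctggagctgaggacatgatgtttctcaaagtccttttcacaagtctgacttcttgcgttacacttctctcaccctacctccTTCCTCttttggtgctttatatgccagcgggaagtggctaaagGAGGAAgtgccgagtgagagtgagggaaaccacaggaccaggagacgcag
The Cd300lb window holds none of the 6 motifs in these forms. The NF-kB consensus, found in 8.46% of all 32851 windows, is in the windows of Cd300a (GGAGAGCCCC) and Cd300ld (GGAAGTTCCC). Whether Cd300lb counts as having an NF-kB match depends on the letters searched, and 3 forms were tried. A looser form that keeps only the outer letters, in 50.8% of all windows, is in those of Cd300a, Cd300lb and Cd300ld, and a shorter form, GGNNTTTCC, in 5.82% of all windows, is in that of Cd300lb alone among the receptors (GGAAACACC). Neither of these is capitalised, and the consensus was settled on after the matches of the others had been seen. GAGGAA is in the windows of Cd300a, Cd300ld and Cd300lf and not in that of Cd300lb. A match is a run of letters and not a measured site.

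Cd300a (LMIR1) is an inhibitory receptor with tyrosine motifs in its tail that binds phospholipids exposed on dying cells. Its first probe set (1435903_at) read 3844.8 and 3964.2 with LPS, against 4855.7 and 3795.9 with immune complexes, so the groups overlapped. The log2 difference was 0.14 ± 0.31 (SE), with a 95% interval of -0.54 to 0.81. A dimmer probe set (1445292_at) read 29.9 and 313.6 with LPS, against 351.9 and 276.6 with immune complexes. Here 1 array, LPS replicate 1, was low and the other 3 were alike, so its log2 difference of 1.23 ± 0.70 came from replicate 1 (2.63) and not from replicate 2 (-0.16). The same probe set had -0.01 without LPS replicate 1.

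Cd300lf (CLM-1) is an inhibitory receptor that binds ceramide, and Cd300ld (CLM-5) an activating one that pairs with FcR-gamma. Cd300lf (1427994_at) read 1073.1 and 2353.6 with LPS, against 1158.5 and 1912.4 with immune complexes. Cd300ld (1424832_at) had 417.1 and 991.5 with LPS, against 508.7 and 903.6 with immune complexes. In both genes the replicate 2 arrays were high and the replicate 1 arrays low, whichever the stimulation. Their log2 differences between stimulations were -0.09 ± 0.44 for Cd300lf and 0.07 ± 0.49 for Cd300ld, with 95% intervals of -1.06 to 0.87 and -0.99 to 1.13. Both intervals include a 1.5-fold difference in either direction.

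Clec4e (Mincle) and Clec4d (MCL) are receptors for mycobacterial glycolipid that work together with FcR-gamma, and their genes are neighbours on chromosome 6, with Clec4n on the other side of Clec4d. The neighbouring pair was picked because its readings overlapped between the stimulations, but so did those of Cd300a, Cd300ld, Cd300lf, Clec4n and Trem2. Any link of the motifs to the readings was not tested. The start regions of Clec4e and Clec4d are shown with capitals as above.
Clec4e, chr6:123289822-123290121, minus strand: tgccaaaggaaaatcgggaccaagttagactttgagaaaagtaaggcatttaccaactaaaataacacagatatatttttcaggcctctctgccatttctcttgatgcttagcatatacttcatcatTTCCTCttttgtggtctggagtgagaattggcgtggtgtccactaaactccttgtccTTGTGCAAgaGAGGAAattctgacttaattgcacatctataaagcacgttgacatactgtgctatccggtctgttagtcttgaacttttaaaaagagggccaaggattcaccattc
Clec4d, chr6:123261857-123262156, plus strand: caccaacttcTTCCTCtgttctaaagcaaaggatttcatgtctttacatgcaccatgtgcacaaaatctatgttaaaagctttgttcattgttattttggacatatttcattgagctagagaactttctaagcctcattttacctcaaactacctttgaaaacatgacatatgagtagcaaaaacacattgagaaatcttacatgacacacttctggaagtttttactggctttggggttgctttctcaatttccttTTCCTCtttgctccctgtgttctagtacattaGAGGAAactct
The Clec4e window holds TTGTGCAA, a match to the C/EBP motif that 10.8% of all windows hold, and 2 matches to GAGGAA. The Clec4d window holds 3 matches to GAGGAA and none to the other motifs. Over the 9 receptor genes with a window, 8 held GAGGAA, all but Cd300lb, against 28.3% of all windows, and Clec7a counts once although RefSeq gives it 2 overlapping windows. C/EBP matches were found for Cd300a, Clec4e and Trem2, and the AP-1 motif (7.81% of all windows) for Trem2. CRE and EGR matches, in 1.79% and 0.612% of all windows, were found for none of them.

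The brighter Clec4e probe set (1420330_at) read 27399.8 and 23193.5 with LPS, against 23461.9 and 21497.9 with immune complexes. The other (1420331_at) had 6389.9 and 5337.4 with LPS, against 5413.7 and 7569.3 with immune complexes. Both overlapped between the groups, with log2 differences of -0.17 ± 0.23 and 0.13 ± 0.30, and the 95% interval of the brighter one ran from -0.66 to 0.33. Clec4d (1420804_s_at) read 12474.9 and 17193.9 with LPS, against 16250.8 and 17926.8 with immune complexes, a log2 difference of 0.22 ± 0.26 with a 95% interval of -0.34 to 0.78. The groups overlapped, and the lowest reading was that of LPS replicate 1. Its probe set is of a design (the suffix _s_at) that can bind transcripts of several genes. The first Clec4n and the brighter Trem2 probe sets, and those read for Fcgr2b and S100a8, have the same suffix.

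Clec7a (Dectin-1), the beta-glucan receptor, carries its own hemITAM motif. Its probe set (1420699_at) read 12130.1 and 12208.4 with LPS, against 10294.9 and 11772.7 with immune complexes. Both readings with immune complexes were below both with LPS, by a mean of 0.14 ± 0.26 on the log2 scale, and the 95% interval of the log2 difference was -0.70 to 0.41. With quantile normalization the log2 difference of Clec7a was 0.01, so this order depends on the scaling. Clec4n (Dectin-2), which binds fungal mannans and pairs with FcR-gamma, read 419.6 and 563.8 with LPS, against 413.7 and 436 with immune complexes on its first probe set (1419627_s_at). The second (1425951_a_at) had 243.4 and 293.4 with LPS, against 153.3 and 295.2 with immune complexes. Neither separated the groups, with log2 differences of -0.18 ± 0.41 and -0.28 ± 0.48. Groups that do not overlap in either direction were found for 3 of the 14 receptor probe sets (Cd300lb above, Clec7a and Trem1 below) and for 25.5% of all tested probe sets.

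**Figure D2:**
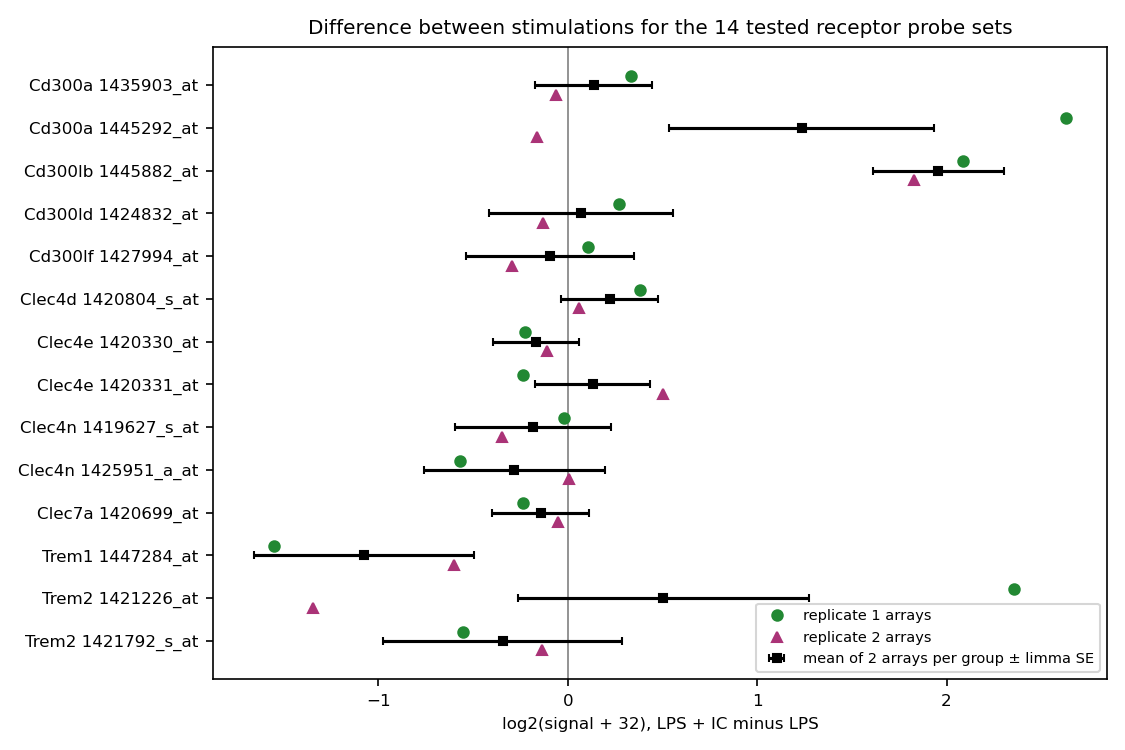
Log2(signal + 32) with LPS plus immune complexes minus LPS for the 14 tested probe sets; squares are the mean difference with limma's standard error, circles the difference between the replicate 1 arrays and triangles that between the replicate 2 arrays. Cd300lb lies at 2.08 and 1.83 in the 2 replicates, and the dimmer Cd300a and Trem2 probe sets lie far from 0 in replicate 1 at 2.63 and 2.36 and below 0 in replicate 2.

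Trem1, which amplifies inflammatory signals through DAP12, has a tested probe set (1447284_at) that read 236.7 and 368.4 with LPS, against 59.7 and 231.7 with immune complexes. Both readings with immune complexes were lower, though 1 of them lay only just under the lower LPS reading. The log2 difference was -1.08 ± 0.58, with -1.55 for replicate 1 and -0.60 for replicate 2. Its 95% interval ran from -2.35 to 0.19. The second Trem1 probe set (1460282_at), under the filter, had 80.3 and 4.8 with LPS, against 38.9 and 10.8 with immune complexes and showed no such order.

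Trem2, a lipid-sensing receptor of macrophages that also pairs with DAP12, read 2423.8 and 7828.7 with LPS, against 1639.1 and 7129.6 with immune complexes on its brighter probe set (1421792_s_at). The replicate 2 arrays were high and the replicate 1 arrays low in both groups. Between stimulations the log2 difference was -0.34 ± 0.63. Its dimmer probe set (1421226_at) read 39.4 and 265.4 with LPS, against 333.5 and 85 with immune complexes. There the order of the replicates turned round between the groups, so the probe sets of Trem2 disagree, and the dimmer one has differences of 2.36 in replicate 1 and -1.35 in replicate 2.

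Several receptors differed by replicate number in the same direction in both groups. With LPS, replicate 2 was 2.28-fold above replicate 1 for Cd300ld, 2.16-fold for Cd300lf and 3.2-fold for the brighter Trem2 probe set. With immune complexes the same ratios were 1.73-fold, 1.63-fold and 4.29-fold. Of the 14 tested probe sets, these 3 were at least 1.5-fold higher in replicate 2 in both groups, as were 6.43% of all tested probe sets, a threshold that was chosen after these values had been seen. The tested Trem1 probe set lay just outside that threshold, at 1.49-fold with LPS and 2.88-fold with immune complexes. The second Clec4n probe set had 1.18-fold and 1.77-fold, its first 1.32-fold and 1.05-fold, and Clec4d 1.38-fold and 1.10-fold. The brighter Clec4e probe set, Clec7a, Cd300lb and the first Cd300a probe set had ratios of replicate 2 to replicate 1 between 0.78 and 1.14. Among other genes, and picked after its values were seen, the mannose receptor Mrc1 read 864.1 and 3660.2 with LPS, against 846.4 and 3772.4 with immune complexes, and the Fc receptor Fcgr1 was 1.87-fold and 1.80-fold higher in replicate 2. Other genes went the other way, such as Pilrb1, whose ratios of replicate 2 to replicate 1 were 0.32 and 0.42. The summed macrophage markers were higher in replicate 2 in both groups as well, by smaller ratios. Within that list Mertk and Itgam were lower in replicate 2 in both groups, and Csf1r and Adgre1 changed direction between the groups. The part of the macrophage markers in these differences was not tested. The labels do not say what the replicate number stands for.

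**Figure D3:**
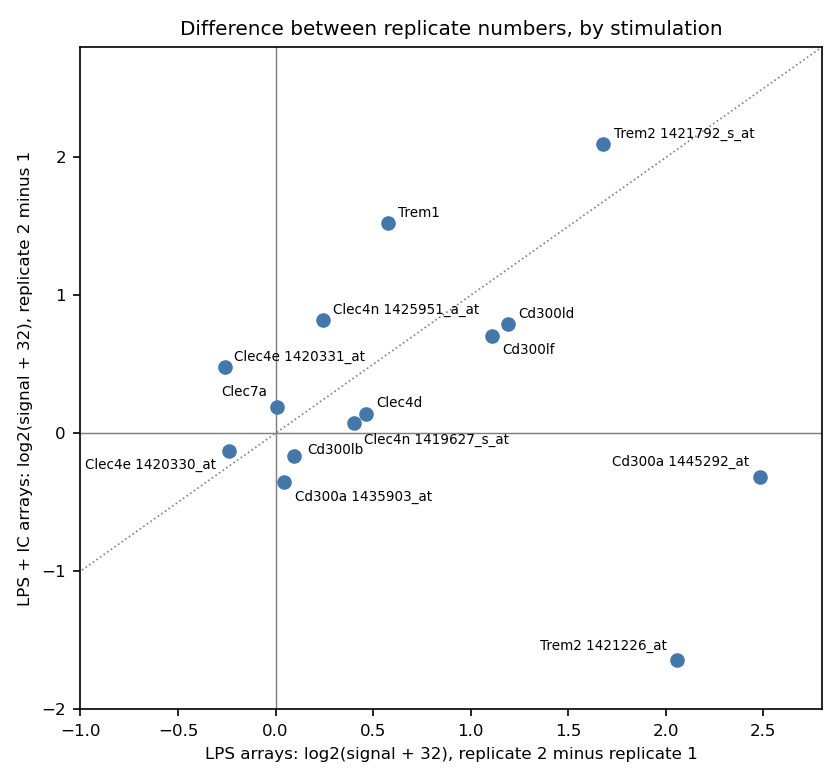
Log2(signal + 32) of replicate 2 minus replicate 1 for the 14 tested probe sets, with LPS (horizontal) and with LPS plus immune complexes (vertical); the dotted line marks equal differences. Cd300ld, Cd300lf and the brighter Trem2 probe set lie above 0 on both axes, Cd300lb lies close to 0 on both, and the dimmer Cd300a and Trem2 probe sets lie high on the LPS axis only.

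The genes around these receptors were taken from 5 lists of partners, related receptors, ligands and targets, with 93 names, of which 78 matched a single-gene probe set and 73 passed the filter. Each gene was represented by its probe set with the highest mean signal. None of the 73 passed an adjusted p under 0.05 in the limma fit, where 0.0621% of all 12891 genes tested did, and at an unadjusted p under 0.05 limma took 7 of the 73 (9.59%) against 3.13% of all genes. Those 7 were Fcgr2b, Il1b, Il10, Il12b, Csf3, Egr1 and Egr3, and 6 of them came from the list of genes induced through CARD9 or NFAT. Nothing is read from that share, because the lists were chosen with earlier results of these data known.

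The partner chains did not pass the test. Tyrobp (DAP12), singled out with the next genes for its role and not by size, had log2 differences of -0.33 ± 0.23, Fcer1g (FcR-gamma) of -0.26 ± 0.22 and the kinase Syk of -0.14 ± 0.29. For Tyrobp and Fcer1g both readings with immune complexes were below both with LPS, while those of Syk overlapped. Over the 21 tested adaptors and signalling proteins 9 lay above 0 and 12 below, with a median of -0.14 against 0.05 over all genes. Among them the groups did not overlap for 2 higher and 6 lower with immune complexes. In either direction, 25.5% of all tested probe sets did not overlap. The furthest from 0 were Blnk, an adaptor, at 0.57 ± 0.44, Prkcd, the kinase that acts between Syk and CARD9, at -0.52 ± 0.29, Pik3r1, a PI3-kinase subunit, at 0.51 ± 0.36, and the ubiquitin ligase Cblb at -0.49 ± 0.36. No value is given for Card9 or Lyn, which were not analysed here.

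All 4 Fc gamma receptors had a negative log2 difference, and none passed. So had 5915 of all 12891 genes tested, and 6 of the 8 macrophage markers (Fcgr1 among them), with a median of -0.23. The inhibitory receptor Fcgr2b read 5033.7 and 3137 with LPS, against 1331.8 and 1974.9 with immune complexes, a log2 difference of -1.28 ± 0.37 with a limma adjusted p of 0.676. The activating receptors had -0.31 ± 0.35 for Fcgr1, -0.26 ± 0.25 for Fcgr3 and -0.30 ± 0.26 for Fcgr4. The readings of Fcgr2b and Fcgr3 were lower with immune complexes on both arrays than on either LPS array, while those of Fcgr1 and Fcgr4 overlapped. Groups did not overlap, in either direction, for 25.5% of all tested probe sets.

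Other receptors of the same families numbered 22 tested, with 11 above 0 and 11 below and a median of -0.05. The largest differences were those of dim probe sets, Clec12b (1.93 ± 1.07), Treml1 (0.82 ± 0.76), Clec2i (0.76 ± 1.02) and Cd209a (0.74 ± 0.68). Clec12b read 24.9 and 3.7 with LPS, against 286.2 and 60.4 with immune complexes, highest on the array whose dim signals were raised. The neighbouring CD300 gene Cd300c2, named here for its position after Cd300ld, read 2385.2 and 4368.7 with LPS, against 3420.4 and 4811.9 with immune complexes, with the replicate 2 arrays high in both groups. It had a log2 difference of 0.33 ± 0.37.

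Ligands, sheddases and transcription factors tied to these receptors gave 12 tested genes, 4 above 0 and 8 below, with a median of -0.10. Clu, a protein ligand of Trem2, had 1.02 ± 0.88, and Apoe, another, -0.38 ± 0.22. The dim Clu probe set read 162.1 and 20.4 with LPS, against 426.1 and 59 with immune complexes. Its groups overlapped, and it was highest on the array whose dim signals were raised. Spi1, which encodes PU.1, had -0.53 ± 0.30 and Rela, a subunit of NF-kB, -0.43 ± 0.30. The readings of Apoe with immune complexes, 23530.3 and 22277.8, were both under those with LPS, 28990.5 and 30665.1.

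Genes known to be induced through CARD9 or NFAT downstream of these receptors lay on both sides of 0, with 10 of 14 above it and a median of 0.22. The growth factor Csf3 had 2.38 ± 0.44 (limma adjusted p = 0.103) and the cytokine Il10 1.46 ± 0.29 (limma adjusted p = 0.164). The early factor Egr1 had 1.31 ± 0.47, with a limma adjusted p close to 1. Its log2 difference was 2.51 in replicate 1 and 0.11 in replicate 2. It read 1596.1 and 3355.8 with LPS, against 9239.7 and 3633.7 with immune complexes. The cytokine subunit Il12b had -2.05 ± 0.48 (limma adjusted p = 0.284). LPS alone is known to induce many of these genes.

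**Figure D4:**
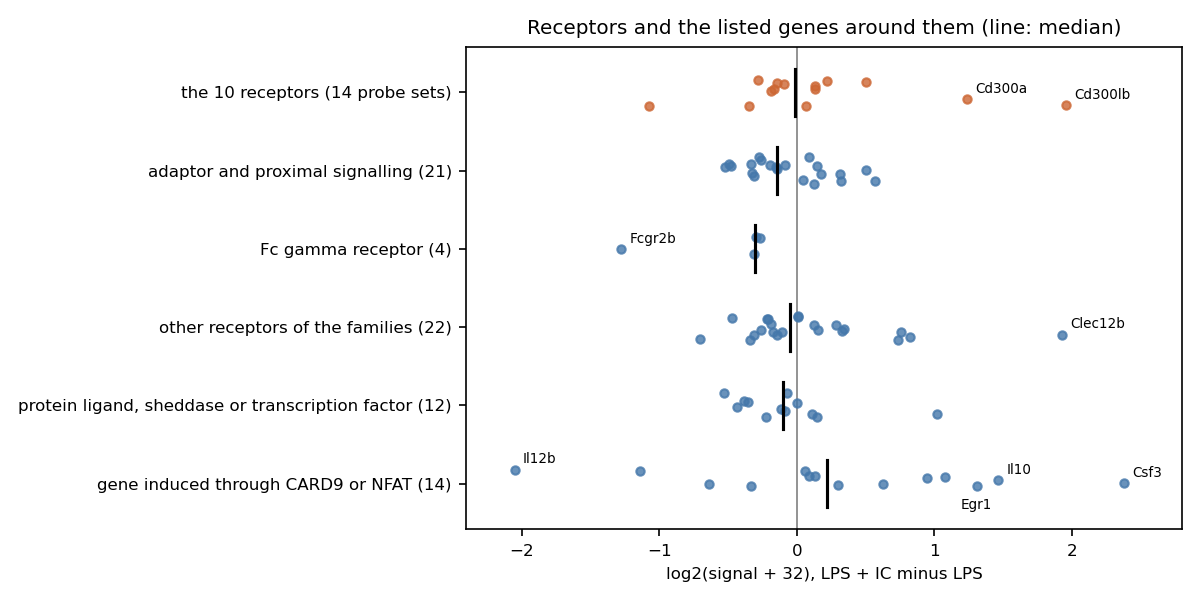
Log2(signal + 32) with LPS plus immune complexes minus LPS for the receptor probe sets (orange) and for the tested genes of the 5 lists (blue, 1 point per gene, spread vertically at random), with the median of each as a black line and points beyond 1.2 named. The medians lie between -0.31 and 0.22, and Cd300lb lies at 1.96, apart from most other receptors.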

How the data were processed

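Biotin-labelled RNA of 4 macrophage samples was read on a mouse Affymetrix array. The authors deposited a linear intensity for each probe set, computed with MAS 5.0 per the submitters' processing notes. That program scales each array as a whole, and the deposited table shows no scaling beyond it and holds no detection calls. Groups came from the sample titles. GEO's annotation of the array gave the gene names (34945 probe sets with 1 gene, 932 with several, 9160 with none), and probe sets with several genes were left unnamed. No probe set position is given, since the annotation names no build, and the promoter windows are RefSeq's.

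Signals were transformed to log2(signal + 32). The 64 controls and probe sets under the 40th percentile of the mean signal were left out. The 2 groups were compared with limma 3.58.1 under R 4.3.3 (lmFit, then eBayes with a mean-variance trend, two-sided, without a block), Benjamini-Hochberg adjusted over all tested probe sets. Errors of log2 differences are limma's standard errors, and 95% intervals come from the same fit. Only 4 arrays limit the precision, and an exact permutation test of 2 against 2 arrays cannot give a p below 0.333. The method was tested on simulated data.

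The members, gene lists and motifs were chosen with earlier results of these data known, and the NF-kB form was changed after its matches had been seen. Of the listed genes, all Fc gamma receptors and up to 4 of each other list were named, first those that passed, then those with the largest differences. Alternatives were quantile normalization, median centring, a pseudocount of 1 or 100, no filter, a filter at the 60th percentile, no variance trend, the replicate number as a block with and without quantile normalization, and leaving out each array.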

Additional observations from a re-analysis of the deposited data

How the results depend on the processing

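Cd300lb kept a positive log2 difference in all 13 alternatives (1.76 to 2.04), while its limma adjusted p ran from 3.2e-16 to close to 1. Among the other receptors only the tested Trem1 probe set kept its sign in all 13. For both probe sets only quantile normalization and median centring could have changed the sign. The filter, the variance trend and the block alone leave a log2 difference as it is. Groups that do not overlap keep their order with another pseudocount or an array left out. Member probe sets called numbered 0 in the reported fit, 1 (Cd300lb) without a filter, with limma adjusted p = 0.00563, and 0 to 1 when an array was left out. The median over the members moved from -0.01 to -0.21 with median centring, a setting that also moved the median of all tested probe sets from 0.07 to -0.13, and ran from -0.27 to 0.30 when an array was left out. Over all probe sets 14 were called, against 0 with quantile normalization, 47 with median centring, 23 and 6 with a pseudocount of 1 and 100, 89 without a filter, 4 with the 60th percentile filter, 0 without the variance trend, and 0 to 109 when an array was left out. Of the listed genes 0 were called, against 2 with median centring (Csf3 and Il12b), 3 without a filter and 0 to 3 when an array was left out. A block for the replicate number raised the limma counts to 671 probe sets, 1 member (Cd300lb, adjusted p = 2.2e-12) and 8 listed genes, and the block with quantile normalization to 903, 2 (Cd300lb and Clec4d) and 10. In both block fits, with median centring and without either LPS array limma's prior was infinite, so every probe set of like signal was given the same spread. Deviations of arrays with the same replicate number correlated at 0.38 across tested probe sets, but only 2 pairs exist and the labels name no shared source, so the numbers are not treated as pairing the samples. The cause of these changes was not tested. With an array left out, the lone array of its group is taken to vary as the other 2 do. Dim probe sets, such as the dimmer ones of Cd300a, Trem1 and Trem2, have the least certain values.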
